A study of Mus musculus with 35 samples.

Results

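The subcortical maternal complex was followed through the 7 genes that encode its subunits and close associates, *Nlrp5* (also called *Mater*), *Ooep* (*Floped*), *Tle6*, *Khdc3* (*Filia*), *Padi6*, *Zbed3* and *Nlrp2*. They were picked by name from the 24480 genes of the count table, and all 7 were counted in all 35 samples and passed the filter on low counts. Total RNA had been sequenced from C57BL/6NRj mouse embryos without a genetic alteration. The 10 control zygotes received water and the 10 Kdm5b zygotes received *Kdm5b-yfp* mRNA, coding for a fluorescently tagged KDM5B, a demethylase of histone H3 lysine 4, and both were collected 17 h after ovulation. The 9 control 2C samples and 6 Kdm5b 2C samples were injected in the same 2 ways and collected 5.5 to 8 h after division. Each zygote sample was a single embryo, and so were 6 of the control and 5 of the Kdm5b 2C samples. The others were pools, 1 of blastomeres from 2 control embryos, 2 of blastomeres from 3 control embryos and 1 of blastomeres from 3 Kdm5b embryos. The 2C embryos came from zygotes that had been frozen and thawed, and zygote and 2C libraries were prepared on different days, so stage, freezing and library day cannot be told apart. Injection of mRNA as such cannot be told apart from KDM5B either, since the controls received water, and embryos with no or weak fluorescence had been left out of the Kdm5b groups.

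The complex lies beneath the plasma membrane of the oocyte and early embryo, is assembled from proteins made during oocyte growth, and is needed for the first cleavages. NLRP5, OOEP, TLE6 and KHDC3 form its core, and PADI6 is needed for the fibrous cytoplasmic lattices in which the same proteins are stored. ZBED3 and NLRP2 are associated with the core. Their mRNAs are made in the growing oocyte, and the embryo inherits them when transcription is silent.

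The RNA levels of the 7 genes are given as TPM, a unit that corrects counts for exon length and library depth and allows genes to be compared within a sample. No spike-in was used, so every level is relative to the rest of the RNA, and whether the RNA per cell differed was not measured. The number of cells in each sample is known from the labels. Total gene counts lay between 8705584 and 17797581 per sample. *Kdm5b* held 2.30% to 10.4% of them in Kdm5b zygotes, 8.27% to 15.8% in Kdm5b 2C samples and at most 0.0189% in controls, and its row was removed before any scaling. The 7 oocyte markers (*Zp1*, *Zp2*, *Zp3*, *Gdf9*, *Bmp15*, *Oosp1* and *Mos*) were detected at all stages, with summed levels of 2795 to 6952 TPM. The 12 markers of cumulus and granulosa cells summed to between 12.7 and 51.0 TPM, with *Amh* and *Inha* at 0 in every 2C sample. Most of this in control zygotes was *Cyp19a1*, at a mean of 27.2 TPM out of a mean sum of 30.5, and it was detected in every sample. The 6 sperm markers summed to between 0.319 and 68.5 TPM, with *Tnp2* at 0 in all samples. Most of this in control zygotes was *Prm2*, at a mean of 21.7 TPM out of a mean sum of 22.4.

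The start regions of *Ooep*, *Khdc3* and *Padi6* are shown because they hold the same short element at the same position, for which these 3 were picked out of the 7. All 7 genes were matched in the RefSeq promoter table of GRCm38.p6, which holds 250 bases before and 50 after each start. Capitals mark CANNTG, the E-box bound by basic helix-loop-helix factors such as the oocyte factor FIGLA. The window of *Ooep* is chr9:78378539-78378838 on the minus strand, that of *Khdc3* is chr9:73102148-73102447 on the plus strand, and that of *Padi6* is chr4:140742594-140742893 on the minus strand.
Ooep: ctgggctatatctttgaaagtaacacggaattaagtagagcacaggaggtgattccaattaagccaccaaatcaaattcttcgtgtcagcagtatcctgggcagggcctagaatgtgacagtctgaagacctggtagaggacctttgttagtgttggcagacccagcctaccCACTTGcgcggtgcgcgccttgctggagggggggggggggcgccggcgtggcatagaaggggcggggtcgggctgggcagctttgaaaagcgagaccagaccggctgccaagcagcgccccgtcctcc
Khdc3: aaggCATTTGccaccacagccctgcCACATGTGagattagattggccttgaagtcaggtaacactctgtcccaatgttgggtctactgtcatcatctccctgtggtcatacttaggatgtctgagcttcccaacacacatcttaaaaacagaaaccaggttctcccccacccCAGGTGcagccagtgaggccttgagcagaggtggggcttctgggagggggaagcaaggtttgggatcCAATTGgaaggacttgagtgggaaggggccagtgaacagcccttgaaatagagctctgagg
Padi6: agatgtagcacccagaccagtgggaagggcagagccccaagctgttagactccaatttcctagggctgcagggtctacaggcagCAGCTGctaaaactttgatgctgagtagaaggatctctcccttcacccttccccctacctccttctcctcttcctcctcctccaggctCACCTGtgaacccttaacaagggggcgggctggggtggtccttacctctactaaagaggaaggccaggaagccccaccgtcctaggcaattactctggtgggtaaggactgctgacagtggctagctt
In each of these 3 windows a CANNTG began at position -78, counted from the transcription start. The match was noticed after the sequences had been seen. The first promoters of *Nlrp5*, *Tle6*, *Zbed3* and *Nlrp2* held none at that position. *Nlrp5*, *Tle6* and *Nlrp2* also fell between the stages, and a link of position -78 to the levels was not tested. Of the 27025 first promoters in the table, 0.492% held a CANNTG at that very base, and 9.70% held one within 10 bases of it. CANNTG anywhere in the window, on either strand, was in the first promoter of 6 of the 7 genes (all but *Nlrp2*) and in 72.1% of all first promoters. *Tle6* held the form CACGTG, which 7.24% of promoters hold. TATAAA, searched on both strands, was in the first promoter of *Nlrp5*, on the strand opposite to the gene, and in 14.2% of all. That promoter lies inside the counted gene. The second promoter of *Nlrp5*, at the start of the counted gene, held 0 TATAAA and had a GC content of 48%. *Tle6* and *Zbed3* also had further promoters in the table, and the second of *Zbed3* held TATAAA 1 time. The GC content of the first promoters ran from 41.7% in *Nlrp5* to 68% in *Tle6*, around a median of 52.7% over all first promoters.

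*Zbed3* differed from the other 6 genes in some of the motifs searched in the 3′ UTR. In the GENCODE M21 transcripts with the longest coding sequence, its 3′ UTR was 1085 bases long and held TTTTAT, the core of the cytoplasmic polyadenylation element, 4 times. The 6 other genes held TTTTAT 0 times, in 3′ UTRs of 109 bases (*Nlrp5*), 130 (*Tle6*), 189 (*Nlrp2*), 221 (*Padi6*), 246 (*Khdc3*) and 1446 bases (*Ooep*). Among 11072 tested genes the median 3′ UTR length was 982 bases, 55.2% held TTTTAT at least once, and of the 2837 genes with a 3′ UTR of up to 400 bases 19.0% did. How many genes hold it 4 times was not counted. Of the other motifs searched, TATTTAT was found 1 time each in *Ooep* and *Zbed3*, and TTTTAAT 1 time in *Zbed3* alone. TGTANATA was found 0 times in all 7 genes. These motifs were held by 28.2%, 30.3% and 25.2% of the tested genes. The elements of *Zbed3* are shown with 8 bases on each side and TTTTAT in capitals, the fourth ending 8 bases before the transcript's end.
Zbed3 element 1: ggcatggtTTTTATccaggaac
Zbed3 element 2: aatgccttTTTTATgagacgtt
Zbed3 element 3: ccattataTTTTATaaaaacca
Zbed3 element 4: taataaacTTTTATttatctgc
A match in letters does not show that a protein binds there.

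Levels in zygotes spanned a wide range. *Zbed3*, whose protein takes part in placing the spindle and organelles in oocytes, was at 12702 to 16691 TPM in control zygotes (median 14429.5), the highest mean of all genes in the table. Its mean was 14662 ± 1175 (SD, n = 10), and it alone took 1.30% of the gene counts. *Ooep*, which encodes a KH-domain scaffold of the core, ran from 913 to 1348 TPM around a median of 1090. *Padi6*, a peptidylarginine deiminase, ran from 668 to 1453 TPM (median 908). *Nlrp5*, the NLR protein that anchors the core, ran from 665 to 1038 TPM (median 734), and *Tle6*, a Groucho-family protein, from 335 to 738 TPM (median 479). These 4 genes held ranks 80, 109, 159 and 314 among all genes by mean TPM. *Khdc3*, the second KH-domain protein of the core, was far lower, at 38.5 to 68.8 TPM (median 58.6), and *Nlrp2*, an NLR relative of *Nlrp5*, at 35.3 to 71.01 TPM (median 47.2).

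The 7 genes lie at chr7:23385889-23441923 (*Nlrp5*, plus strand), chr9:78376903-78378588 (*Ooep*, minus), chr10:81590905-81600900 (*Tle6*, minus), chr9:73102398-73104443 (*Khdc3*, plus), chr4:140727355-140742643 (*Padi6*, minus), chr13:95323605-95337842 (*Zbed3*, plus) and chr7:5298547-5351035 (*Nlrp2*, minus) of GRCm38. Their counts are sums over 3 to 16 exons.

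The order *Zbed3*, *Ooep*, *Padi6*, *Nlrp5*, *Tle6*, *Khdc3*, *Nlrp2* had 2 clear steps. *Zbed3* was 13.3 ± 2.33 times as high as *Ooep* (SD, n = 10) and *Tle6* 8.72 ± 1.29 times as high as *Khdc3*, with no overlap between the genes. The other neighbours overlapped in range. *Ooep* was above *Padi6* in 8 of 10 control zygotes, and *Khdc3* above *Nlrp2* in 8 of 10. The same order of means held in Kdm5b zygotes. In 2C samples of both kinds *Nlrp2* stood above *Khdc3*, in 7 of 9 controls and 5 of 6 Kdm5b samples. The levels of *Ooep* rest on the 1207 exon bases of the counted annotation. The GENCODE transcript of *Ooep* is longer, so its place above *Padi6* depends on the gene model.

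**Figure D1:**
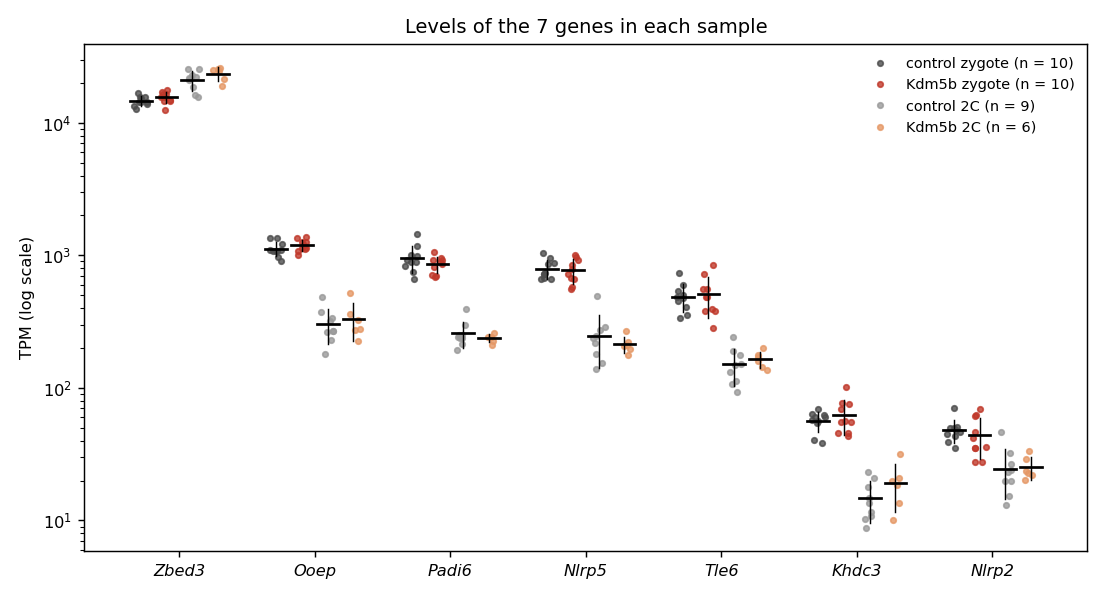
TPM of each of the 7 genes in all 35 samples on a log scale, coloured by group, with a bar for the mean and a line for 1 SD. *Ooep*, *Padi6*, *Nlrp5*, *Tle6* and *Khdc3* separated zygotes from 2C samples, *Zbed3* was higher in 2C samples, and the injected groups lay on the controls at each stage.

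Between control zygotes and control 2C samples, *Ooep*, *Padi6*, *Nlrp5*, *Tle6* and *Khdc3* fell 3.02-fold to 3.58-fold, *Nlrp2* fell 1.83-fold and *Zbed3* rose 1.53-fold. Calls were made with the quasi-likelihood test of edgeR, adjusted by Benjamini-Hochberg over 11968 genes, at an adjusted p under 0.05 and a log2 fold change past 1 in size. By it 5 genes were lower and 0 higher, against a background of 13.0% of all genes called lower and 9.20% called higher. On adjusted p alone, 6 were lower and 1 higher, against 25.4% and 26.8%. The median log2 fold change of the 7 genes was -1.62, and that of all genes 0.02.

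For the core genes, the 2 stages did not overlap. *Ooep* ran from 181 to 486 TPM in control 2C samples (median 270), below every control zygote, and its log2 fold change was -1.81 ± 0.13 (SE, adjusted p = 6.4e-11). *Nlrp5* ran from 139 to 494 TPM (median 237), and its log2 fold change was -1.60 ± 0.17 (adjusted p = 2.1e-08). *Tle6* was at 92.4 to 242 TPM (median 149), with a log2 fold change of -1.62 ± 0.16 (adjusted p = 8.0e-09). All 9 control 2C samples were below all 10 control zygotes in each of these genes. *Khdc3* was at 8.79 to 23.3 TPM (median 13.6) and had the lowest log2 fold change of the 7 genes, -1.84 ± 0.19 (adjusted p = 1.1e-08), from as few as 42 counts in a 2C sample. *Padi6* fell from a mean of 959 to a mean of 258 TPM, with 2C values of 193 to 392.2 TPM (median 240) and a log2 fold change of -1.81 ± 0.14 (adjusted p = 9.0e-11). Only 3.43% of genes tested had a log2 fold change as low as that of *Ooep*. The 95% intervals of the 5 genes overlapped, from -2.22 at the lowest bound to -1.25 at the highest, and the differences between them were not tested.

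*Nlrp2* and *Zbed3* departed from the rest. *Nlrp2* ran from 13.0 to 46.6 TPM in control 2C samples (median 23.2), and 8 of 9 lay below every control zygote. Its log2 fold change of -0.88 ± 0.18 (adjusted p = 0.00027, 95% interval -1.25 to -0.50) was short of the fold threshold. Without control 2C replicate 1, which held its highest 2C value, it was -1.06 (adjusted p = 7.6e-06) and past the threshold. *Zbed3* ran from 15703 to 25522 TPM in control 2C samples (median 21984.5), and 7 of 9 lay above every control zygote. Its log2 fold change of 0.61 ± 0.09 (adjusted p = 1.5e-06) corresponds to a relative level 1.53-fold higher, also short of the threshold. *Zbed3* was 74.2 ± 22.2 times as high as *Ooep* in control 2C samples (SD, n = 9). By mean TPM it was second of all genes there, and *Ooep*, *Padi6*, *Nlrp5* and *Tle6* had moved to ranks 584, 698, 733 and 1320.

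The Kdm5b samples gave the same contrast in embryos that the control contrast does not use, though on the same library days. There, 5 genes were again lower and 0 higher, against 16.0% of all 12390 genes called lower and 10.5% called higher. On adjusted p alone, 6 were lower and 1 higher, against 29.5% and 29.3%. *Ooep* ran from 224 to 524 TPM in Kdm5b 2C samples (median 301) and from 1013 to 1381 TPM in Kdm5b zygotes (median 1166). Its log2 fold change was -1.74 ± 0.14 (adjusted p = 1.5e-10). *Padi6* had the smallest adjusted p, 6.1e-13, at a log2 fold change of -1.74 ± 0.10, with 211 to 258 TPM in the 2C samples (median 242) and 681 to 1057 TPM in the zygotes (median 879). *Nlrp5* (-1.75 ± 0.13), *Tle6* (-1.52 ± 0.18) and *Khdc3* (-1.61 ± 0.21) were lower in all 6 Kdm5b 2C samples than in all 10 Kdm5b zygotes. *Nlrp2* (-0.70 ± 0.19, adjusted p = 0.0027) fell less than 2-fold, with 20.2 to 33.7 TPM after 27.5 to 69.2 TPM. *Zbed3* rose by 0.70 ± 0.09 on the log2 scale (adjusted p = 2.0e-07), and all 6 Kdm5b 2C samples, at 18816 to 25739 TPM, lay above all 10 Kdm5b zygotes. In the zygotes it had run from 12585 to 17807 TPM.

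**Figure D2:**
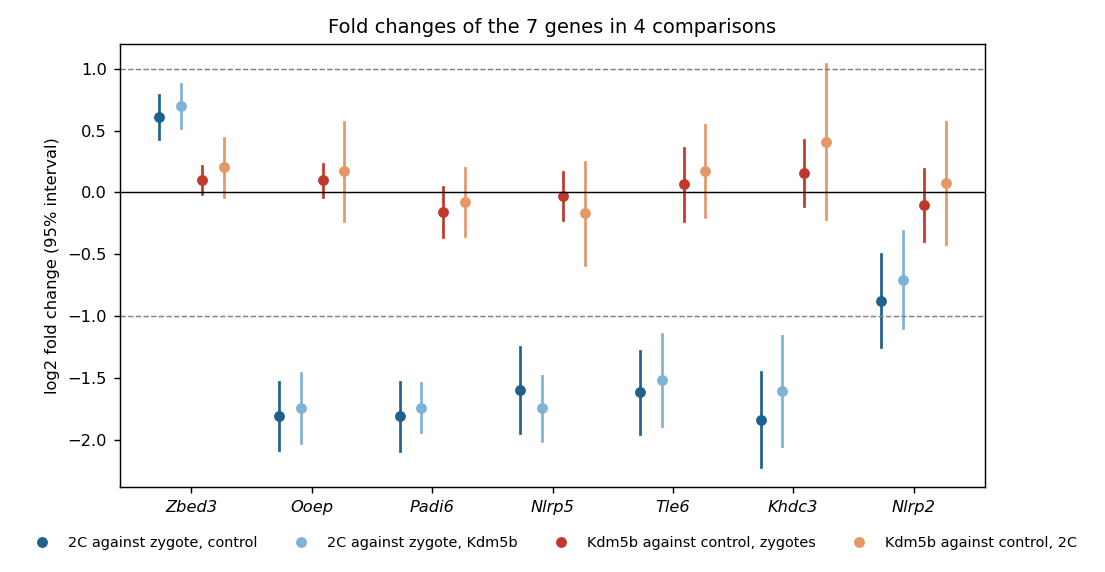
Log2 fold changes of the 7 genes (points) with their 95% intervals (lines) in the 2 stage comparisons and the 2 comparisons of Kdm5b with control, with dashed lines at the fold threshold of 1 in either direction. Every interval of the Kdm5b comparisons held 0, while *Ooep*, *Padi6*, *Nlrp5*, *Tle6* and *Khdc3* lay below -1 at both stage contrasts.

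Although their total shrank, the 6 transcripts other than *Zbed3* kept much the same proportions. Their summed level was 3467 ± 574 TPM in control zygotes (SD, n = 10) and 998 ± 299 TPM in control 2C samples (SD, n = 9), a ratio of 3.47. In Kdm5b embryos it went from 3439 ± 550 to 990 ± 151 TPM (SD, n = 10 and 6), a ratio of 3.47 as well. *Ooep* made up 32.6% ± 2.39 of the sum in control zygotes and 30.4% ± 2.89 in control 2C samples. *Padi6* held 27.5% ± 2.65 and 26.4% ± 3.45, *Nlrp5* 22.9% ± 1.64 and 24.2% ± 2.97, and *Tle6* 14.0% ± 1.53 and 15.0% ± 1.62. For these 4 genes the shift between control stages was within 1 SD of the samples. In Kdm5b embryos this held for *Ooep*, *Padi6* and *Nlrp5*. The share of *Tle6* went from 14.5% ± 2.55 to 16.7% ± 1.24 there, a shift beyond the SD of the 2C samples but not of the zygotes. *Khdc3* stayed at 1.63% ± 0.26 and 1.51% ± 0.43 in controls. The share of *Nlrp2* went from 1.38% ± 0.20 to 2.45% ± 0.54 in controls, with ranges that overlapped, and from 1.26% ± 0.27 to 2.56% ± 0.48 in Kdm5b embryos, where they did not.

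**Figure D3:**
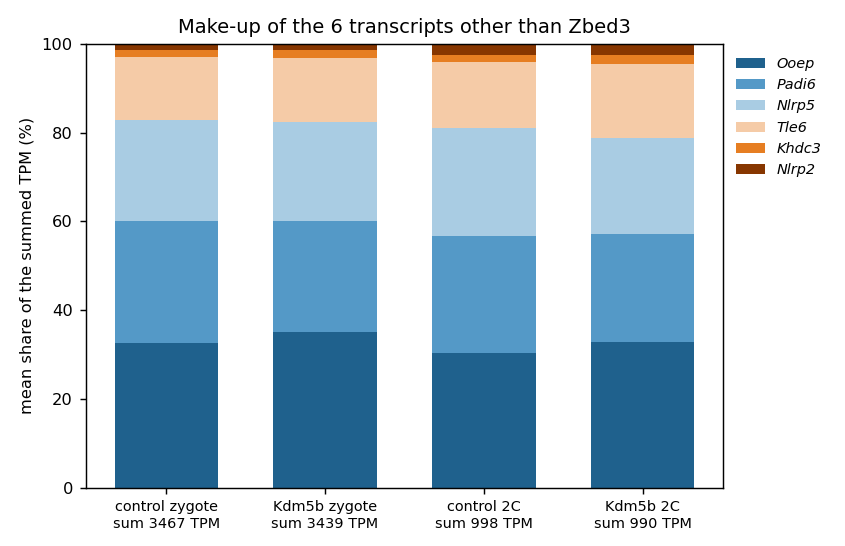
Mean share (%) of each gene in the summed TPM of the 6 transcripts other than *Zbed3*, as stacked bars for the 4 groups, with the mean sum under each bar. The sum dropped from 3467 to 998 TPM in controls while *Ooep* held 32.6% and 30.4% of it.

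KDM5B overexpression changed none of the 7 genes by the test, at either stage. In zygotes, 0 were called higher and 0 lower, where 0.00838% of 11933 genes were called higher and 0% lower (0.0168% and 0.117% on adjusted p alone). Of these 11933 genes, 1234 had an unadjusted p under 0.05, and 0 of the 7 did, which for 7 genes is near that share. DESeq2 and limma called 0 of the 7 as well, at both stages. *Zbed3* had the smallest p of the 7, with a log2 difference of 0.10 ± 0.05 (95% interval -0.01 to 0.22, adjusted p = 0.53) and higher levels than the control mean in 8 of 10 Kdm5b zygotes. *Padi6* was below the control mean in 9 of 10 Kdm5b zygotes, at a log2 difference of -0.16 ± 0.10 (95% interval -0.36 to 0.04, adjusted p = 0.62). *Ooep* differed by 0.10 ± 0.06 (interval -0.03 to 0.23) and *Khdc3* by 0.16 ± 0.13 (interval -0.11 to 0.42). *Nlrp5*, at 560 to 1010 TPM in Kdm5b zygotes (median 755), differed by -0.03 ± 0.09 (interval -0.22 to 0.17). *Tle6*, at 281 to 849 TPM (median 488), differed by 0.07 ± 0.14 (interval -0.23 to 0.36), and *Nlrp2* by -0.10 ± 0.14 (interval -0.40 to 0.19). The intervals of the 7 genes thus lay between -0.40 and 0.42 on the log2 scale.

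In 2C samples the intervals were wider. Again 0 were called higher and 0 lower, where 0% of 12244 genes were called higher and 0.00817% lower (0% and 0.0245% on adjusted p alone). Of these 12244 genes, 1152 had an unadjusted p under 0.05, and 0 of the 7 did, again near that share. *Khdc3* had the largest log2 difference, 0.41 ± 0.30 (95% interval -0.22 to 1.04, adjusted p = 0.75), at 10.1 to 31.9 TPM in Kdm5b samples against 8.79 to 23.3 TPM in controls. *Zbed3* differed by 0.20 ± 0.12 (interval -0.04 to 0.44, adjusted p = 0.63), with 5 of 6 Kdm5b samples above the control mean. *Ooep* (0.17 ± 0.19), *Tle6* (0.17 ± 0.18), *Nlrp5* (-0.17 ± 0.20), *Padi6* (-0.08 ± 0.13) and *Nlrp2* (0.08 ± 0.24) overlapped in range with the controls. The interval of *Khdc3*, the gene with the fewest counts, thus reached past the fold threshold. The difference of the KDM5B effect between the stages, tested as an interaction over all 35 samples, was called for 0 of the 7 genes in either direction (0.00726% of 13778 genes called higher and 0.00726% lower). It ran from -0.14 ± 0.22 for *Nlrp5* to 0.25 ± 0.28 for *Khdc3* on the log2 scale, with a smallest adjusted p of 0.87. Of the 13778 genes, 1254 had an unadjusted p under 0.05 for this term, and 0 of the 7 did, which is also near that share.

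Single zygotes of the same group differed in most of these transcripts more than in most others of like level. In control zygotes, the coefficient of variation of the normalised counts per library size (CPM) was 24.4% for *Tle6*, above all of the 200 genes nearest to it in mean, whose median was 7.81%. It was 24.7% for *Padi6* (above 99.0% of its neighbours), 17.4% for *Nlrp5* (above 94.5%) and 20.7% for *Nlrp2* (above 94.5%). *Ooep*, at 13.0%, was above 88.5% and *Khdc3*, at 16.8%, above 63%. *Zbed3*, at 7.14%, was above 42.5% of its neighbours. These were the 200 other genes of highest mean and not all of like level, since *Zbed3* was near the top. In Kdm5b zygotes *Tle6*, at 31.7%, was again above all its neighbours, and *Nlrp2* (32.1%), *Nlrp5* (18.8%) and *Khdc3* (27.7%) were above 99.5%, 97.5% and 97.0% of theirs. *Padi6*, at 12.7%, was above 91.5%, and *Ooep*, at 9.01%, above 68%. *Zbed3*, at 11.3%, was above 81.5% of its neighbours there, unlike in control zygotes. The spread of 2C samples was less uniform, and these groups mix single embryos with pools of blastomeres from several embryos. In control 2C samples *Nlrp5* was above 98.5% of its neighbours and *Khdc3* above 25%, the highest and lowest of the 7. In Kdm5b 2C samples *Ooep* was above 95%, but *Tle6* above 55.5%, *Nlrp5* above 55%, *Khdc3* above 49%, *Nlrp2* above 33.5% and *Padi6* above 14.5%.

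**Figure D4:**
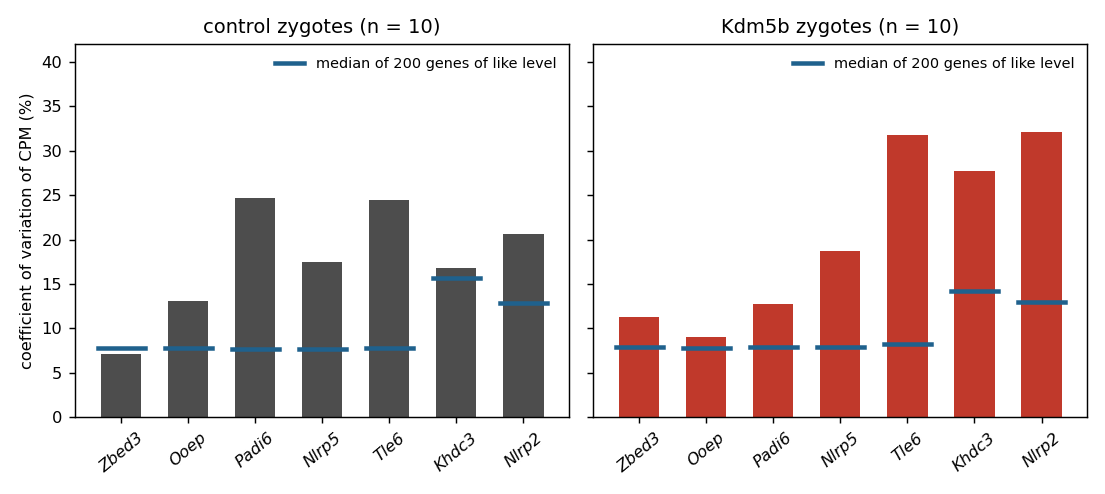
Coefficient of variation (%) of CPM of the 7 genes among 10 control and 10 Kdm5b zygotes (bars), with the median of the 200 genes of nearest mean level (lines). For *Zbed3* these were the 200 other genes of highest mean. *Tle6* stood at 24.4% and 31.7%, against medians of 7.81% and 8.21%, and *Zbed3* at 7.14% and 11.3%.

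This variation was shared in part. Control zygote replicate 3 held the highest level of all 6 transcripts other than *Zbed3*, with a sum of 4716 TPM, and the lowest level of *Zbed3*, 12702 TPM. Control zygote replicate 7, with a sum of 2680 TPM, held the lowest level of 4 of the 6. Among Kdm5b zygotes, replicate 4 held the highest level of 4 genes (sum 4420 TPM) and replicate 10 the lowest of 4 (sum 2630 TPM). To measure this, the log2 CPM of each gene was correlated with the mean standardised log2 CPM of the other 5 of the 6 genes, within each group. With 9 measures (the 7 genes, the library total and the oocyte markers) in 4 groups, 36 relations were computed, and p-values came from two-sided permutation tests (exact for the 2C groups) with Benjamini-Hochberg adjustment over the 36.

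*Tle6* had the highest r of the 7 genes in both zygote groups, though differences between genes were not tested. Its Pearson's r was 0.93 in control zygotes (permutation p = 0.00026, adjusted p = 0.0047, Spearman's rho 0.89, permutation p = 0.0014, adjusted p = 0.017, n = 10). It was 0.96 in Kdm5b zygotes (permutation p = 3.0e-05, adjusted p = 0.0011, rho 0.94, permutation p = 0.00020, adjusted p = 0.0050, n = 10). Without the 2 zygotes farthest from the median of *Tle6*, r was still 0.84 and 0.93. Of 13771 other genes, 0% had a higher r with the same mean in control zygotes and 0.0145% in Kdm5b zygotes. *Nlrp5* reached r = 0.82 in control zygotes (permutation p = 0.0017, adjusted p = 0.010, rho 0.78, permutation p = 0.011) and 0.89 in Kdm5b zygotes (permutation p = 0.00074, adjusted p = 0.0053, rho 0.94, permutation p = 0.00028). Without the 2 farthest zygotes these were 0.70 and 0.87. In control 2C samples, *Nlrp5* (r = 0.91, exact permutation p = 0.00051, adjusted p = 0.0053, rho 0.83, exact permutation p = 0.0083) and *Tle6* (r = 0.92, exact permutation p = 0.00072, adjusted p = 0.0053, rho 0.90, exact permutation p = 0.0020) followed the rest in the same way (n = 9). Without the 2 farthest samples these were 0.78 and 0.89.

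The other genes were less uniform. *Ooep* passed in control zygotes (r = 0.81, adjusted permutation p = 0.015) and control 2C samples (r = 0.87, adjusted exact permutation p = 0.010) but not in Kdm5b zygotes (r = 0.48, adjusted permutation p = 0.23), and the difference between these groups was not tested. Its rho was 0.77, 0.80 and 0.50, and r without the 2 farthest samples was 0.61, 0.68 and 0.12. *Padi6* had r = 0.76 in control zygotes (adjusted permutation p = 0.031), which dropped to 0.35 without the 2 farthest zygotes and so rests on them, and 0.79 in Kdm5b zygotes (adjusted permutation p = 0.020), 0.64 without them. Its rho was 0.65 (adjusted permutation p = 0.098) and 0.79 (adjusted permutation p = 0.039). In control 2C samples *Padi6* passed (r = 0.86, adjusted exact permutation p = 0.010), with 0.75 without the 2 farthest samples. Its rho there was 0.75 (adjusted exact permutation p = 0.071). *Nlrp2* had r = 0.70 in control zygotes (adjusted permutation p = 0.066), -0.13 without the 2 farthest, and 0.81 in Kdm5b zygotes (adjusted permutation p = 0.015), 0.59 without them. Its rho was 0.31 (adjusted permutation p = 0.49) and 0.84 (adjusted permutation p = 0.023). *Khdc3* had r = 0.63 (adjusted permutation p = 0.11) and 0.84 (adjusted permutation p = 0.010) in the 2 zygote groups, with rho of 0.66 and 0.85. In control and Kdm5b 2C samples its r was 0.41 and -0.62 (adjusted exact permutation p = 0.35 and 0.29). In the 6 Kdm5b 2C samples *Nlrp5* alone passed (r = 0.94, adjusted exact permutation p = 0.025), with a rho of 0.89 (adjusted exact permutation p = 0.080). The permutation tests do not compare r with that of other genes. In control and Kdm5b zygotes, 0.62% and 11.9% of the 13771 other genes had a higher r with the same mean than *Ooep*. The shares were 1.11% and 1.07% for *Padi6*, 2.65% and 0.748% for *Nlrp2*, 5.24% and 0.530% for *Khdc3*, and 0.487% and 0.145% for *Nlrp5*.

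*Zbed3* ran against the 6 other transcripts in control zygotes, and in Kdm5b zygotes the relation did not pass. With their mean it had r = -0.80 in control zygotes (permutation p = 0.0046, adjusted p = 0.015, rho -0.78, permutation p = 0.010, n = 10), and -0.79 without the 2 farthest. Of the other genes, 0.726% had a lower r there, and 8.20% did in Kdm5b zygotes. In Kdm5b zygotes r was -0.58 (permutation p = 0.080, adjusted p = 0.14, rho -0.70, permutation p = 0.030, adjusted p = 0.078, n = 10), -0.77 without the 2 farthest. In 2C samples r was positive and did not pass. It was 0.17 in controls (exact permutation p = 0.65, adjusted p = 0.66, rho 0.083, n = 9), -0.61 without the 2 farthest. In Kdm5b 2C samples it was 0.67 (exact permutation p = 0.15, adjusted p = 0.23, rho 0.43, n = 6), -0.44 without the 2 farthest. The library total had r = 0.16 and -0.28 with the mean of the 6 genes in control and Kdm5b zygotes (adjusted permutation p = 0.66 and 0.48). In control 2C samples its r was 0.55 (adjusted exact permutation p = 0.21, rho 0.72, adjusted exact permutation p = 0.083). Without the 2 farthest it was 0.73 there. In Kdm5b 2C samples it was -0.52 (adjusted exact permutation p = 0.38). The mean of the 7 oocyte markers had r = 0.41 and 0.19 in control and Kdm5b zygotes (adjusted permutation p = 0.32 and 0.65). The labels give index numbers, from which strips of 8 were inferred, and nothing states that these are batches. A strip held at most 4 zygotes of a group, too few for a value within each. After centring on the inferred strip, r was 0.86 and 0.94 for *Tle6*, 0.66 and 0.82 for *Nlrp5*, and -0.65 and -0.39 for *Zbed3* in control and Kdm5b zygotes. It was 0.63 and 0.27 for *Ooep*, 0.29 and 0.75 for *Khdc3*, 0.65 and 0.81 for *Padi6*, and 0.79 and 0.90 for *Nlrp2*.

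**Figure D5:**
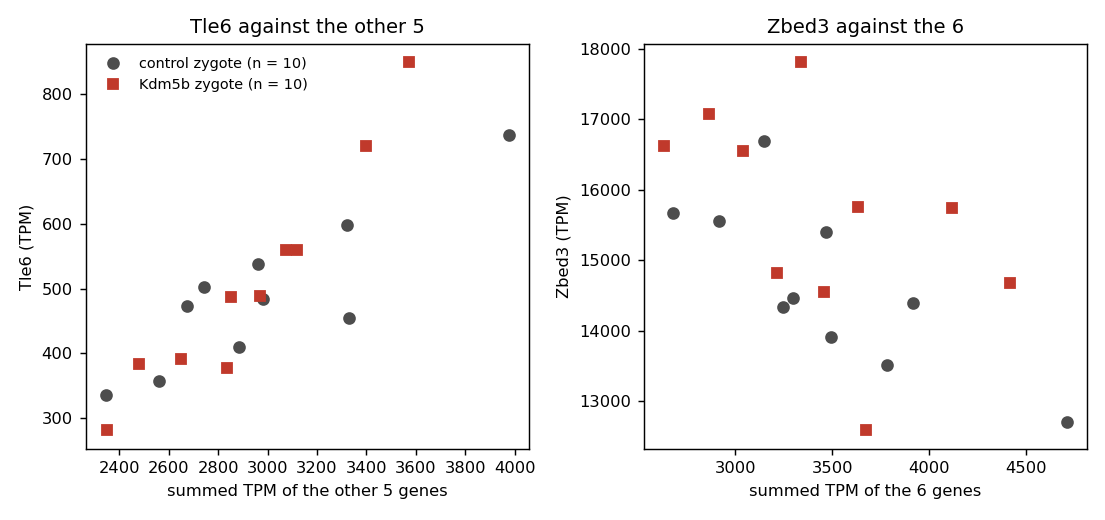
Left, TPM of *Tle6* in each zygote against the summed TPM of the other 5 genes, and right, TPM of *Zbed3* against the summed TPM of the 6, for 10 control and 10 Kdm5b zygotes. *Tle6* rose with the other genes in both groups, and the control zygote with the highest sum, 4716 TPM, had the lowest control level of *Zbed3*, 12702 TPM.

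Over all 35 samples, which fall into 2 stages and 2 library days, so that the stage split weighs in every value, the genes whose log2 CPM was most like the mean standardised profile of the 7 were *Gm15698* (Pearson's r = 0.97), *Fbxw24* (0.97), *Gm813* (0.96), *Camsap3* (0.96) and *Fbxw15* (0.96), out of 13771. Gene by gene, the nearest was *Fbxw24* for *Nlrp5* (0.98) and for *Ooep* (0.98), *Gm15698* for *Tle6* (0.96), *Irf1* for *Khdc3* (0.94), *Tdrd5* for *Padi6* (0.98) and *Camsap3* for *Nlrp2* (0.89). For *Zbed3* it was *Rhpn2* (0.95).

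Among relatives of the KH-domain, TLE, PADI and ZBED members, 0 were called lower between stages in control or Kdm5b embryos, where 13.0% and 16.0% of all genes were. With 2 to 4 genes tested per family, 0 is near that share. Of the 4 KH-domain relatives of *Ooep* and *Khdc3*, 0 were called lower between control stages. On adjusted p alone 3 were higher, where 26.8% of all genes were. *Khdc1b*, which had the smallest p, was at 2647 ± 232 TPM in control zygotes (SD, n = 10) and 3106 ± 462 TPM in control 2C samples (SD, n = 9), with a log2 fold change of 0.32 (adjusted p = 0.0027). Of the TLE family, 4 members were tested, 1 was higher and 0 lower, against 9.20% and 13.0% of all genes. *Tle3* rose by 4.43 on the log2 scale (adjusted p = 3.7e-05), from 0.424 ± 0.489 to 8.77 ± 14.4 TPM, with an SD above the mean in both groups and far below the level of *Tle6*. The other peptidylarginine deiminases were near the limit of detection. Only 2 of 4 were tested and 0 were called, *Padi2* having the smallest p (0.65 on the log2 scale, adjusted p = 0.066) at 3.41 ± 1.27 TPM in control zygotes. Of the 3 other ZBED genes, *Zbed6* rose by 3.76 (adjusted p = 1.1e-05), to 6.12 ± 4.69 TPM.

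Of the 10 other oocyte NLR genes tested, 1 was called lower, *Nlrp4b* (log2 fold change -1.12, adjusted p = 1.2e-06). On adjusted p alone 5 were lower and 2 higher, against 25.4% and 26.8% of all genes, and their median log2 fold change was -0.16. *Nlrp4f*, which also binds the complex, was at 1901 ± 137 TPM in control zygotes and 2007 ± 305 TPM in control 2C samples. In Kdm5b embryos *Nlrp14* was also called (-1.11, adjusted p = 0.00015). Several of these genes are close copies, and fragments that map to more than 1 place had not been counted, so their levels are uncertain. *Nlrp4f* was at 1142 ± 333 TPM in Kdm5b 2C samples (SD, n = 6). Its log2 difference between Kdm5b and control 2C samples was -0.77 (adjusted p = 0.062), and the interaction with stage had an adjusted p of 0.017 without passing the fold threshold.

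Of 19 tested partners and lattice components, 1 was higher and 2 lower between control stages, where 13.0% of all genes were called lower. The counts of called genes in this list and in those of oocyte NLR and other maternal-effect genes were near that share. *Dnmt1*, the maintenance DNA methyltransferase, fell by 2.37 on the log2 scale (adjusted p = 1.7e-11), from 878 ± 209 to 161 ± 45.4 TPM. *Tubb4b*, a beta-tubulin, fell by 1.87 (adjusted p = 1.8e-11), and *Tuba1a*, an alpha-tubulin, rose by 1.95 (adjusted p = 0.0046). Of 19 other maternal-effect genes, 3 were lower and 0 higher. Besides *Dnmt1* these were *Zar1l* (-2.59, adjusted p = 3.2e-11) and *Zar1* (-1.24, adjusted p = 2.2e-06), which encode RNA-binding proteins that hold maternal mRNAs in the oocyte. The medians of both lists, -0.27 and -0.37, lay nearer to that of all genes than the -1.62 of the 7 genes did. Of the 7 oocyte markers 1 was called lower, *Mos* (-1.69, adjusted p = 2.2e-06). All 7 markers of the 2C stage were higher, with *Gm5662* at 9.75, *Zscan4a* at 7.20 and *Zfp352* at 5.32 on the log2 scale (adjusted p = 6.2e-13, 8.5e-12 and 5.9e-09). Among cumulus and sperm markers, *Has2* (1.15, adjusted p = 0.052) and *Prm2* (-1.06, adjusted p = 0.068) had the smallest p and neither passed. In Kdm5b embryos, *Prm2*, a protamine of sperm chromatin, was lower at the 2C stage (-2.12, adjusted p = 0.00022), and *Cyp19a1*, the aromatase of granulosa cells, was lower on adjusted p alone (-0.87, adjusted p = 0.0015). In the same embryos 4 of 19 partners and 5 of 19 other maternal-effect genes were called lower, where 16.0% of all genes were, and 1 partner higher. Of the 7 markers of the 2C stage, 6 were called higher there, where 10.5% of all genes were, and the lowest log2 fold change of the 7 was 0.31. Between Kdm5b and control samples of one stage, 0 genes of these lists were called by either rule. The part of these marker levels in the results was not tested.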

How the data were processed

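The authors trimmed the reads with fastp 0.21.0, aligned them to GRCm38 with STAR 2.7.3a and counted fragments per RefSeq gene on the sense strand with featureCounts 1.5.1, and the deposited table holds these raw counts for 35 samples. Fragments with several map positions were not counted. The deposited table of repeats was not used here. TPM was computed from the counts and the deposited exon lengths after removal of the *Kdm5b* row. The groups of a comparison alone entered its fit, by edgeR 4.0.16 under R 4.3.3 (TMM, filterByExpr with a minimum count of 10, quasi-likelihood test, Benjamini-Hochberg adjustment over all genes), with thresholds of 0.05 on adjusted p and 1 on the log2 fold change. The scripts were tested on simulated data. Total counts ran from 8705584 to 17797581 per sample. Alternatives were DESeq2 1.42.0, limma 3.58.1, other filters and scalings, single embryos only, a block, an index strip and each sample left out. Log2 CPM used a prior count of 2, and permutation tests 100000 draws. Genes named from each list were those past both thresholds (up to 3 per direction) or the 1 with the smallest p. The genes and lists were chosen with earlier results of these data known. Zygotes had been pooled across females before injection, so samples are separate embryos and not separate females.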

Additional observations from a re-analysis of the deposited data

Results flagged for a closer look

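Of 28 sets of levels, each 1 gene in 1 group, 2 held a sample far from the others by Dixon's test at the 95% level, where chance gives about 1 in 20. Control 2C replicate 1, a single embryo, had *Nlrp5* at 494 TPM, and the next highest control 2C sample was at 286 TPM. The same sample was the highest of its group in 5 of the 6 transcripts other than *Zbed3*. Control zygote replicate 3 had *Nlrp2* at 71.01 TPM, with the next at 50.5 TPM, and it was the highest of its group in all 6. Their cause was not tested.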

How the results depend on the processing

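The 5 genes called lower between stages were called in all 11 alternatives and in all 19 (control) and 16 (Kdm5b) fits that left out a sample. With no threshold on the fold change, 1 gene was called higher in each stage comparison, *Zbed3* (0.61 and 0.70). No alternative called a member in the Kdm5b comparisons, with adjusted p from 0.30 to 1 (DESeq2 gave none for *Khdc3* in 2C samples). Some of these small differences changed sign. In zygotes *Nlrp5* was 0.012 with limma voom. Over fits that left out a sample, *Nlrp5* ran from -0.072 to 0.025 and *Tle6* from -0.040 to 0.149. In 2C samples *Nlrp5* ran from -0.246 to 0.013, *Ooep* from -0.0095 to 0.281, *Padi6* from -0.123 to 0.012 and *Nlrp2* from -0.016 to 0.238, while *Nlrp2* was -0.00015 with the index strip. The 2 inferred strips held 5 and 1 Kdm5b and 3 and 6 control 2C samples, so strip and injection are largely confounded. Replicate numbers did not pair the samples (0 same-numbered pairs correlated above 0.1, and at most 2 of 10 pairs matched their own number best), and with the replicate block *Padi6* in 2C samples was 0.00025 and no other sign or call changed. The block moved calls over all genes in control embryos from 1036 higher and 1488 lower to 812 and 1657 in the same samples, and in the Kdm5b comparison of 2C samples from 0 lower to 3. Over all genes, that comparison gave 0 higher and 1 lower as reported, 6 and 47 with the index strip, 15 and 55 with all 35 samples in a single fit, and 1 and 6 with DESeq2, none of them among the 7 genes. The fit on the same samples was added after the data were seen, like the interaction in single embryos. Between stages, the median of all genes (0.022 in control and 0.0078 in Kdm5b embryos) was 0.12 and 0.14 with DESeq2, which tested 15900 genes and not 11968 in control embryos and called 1813 higher and 1665 lower against 1101 and 1555. It was 0.057 and 0.060 with DESeq2 size factors alone, -0.053 and -0.085 with limma, and -0.074 and -0.057 with the replicate block.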
